A study of Mus musculus with 2 samples.

Results

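Nodal and BMP signalling are branches of the TGF-beta superfamily. Nodal, activin and BMP ligands bind pairs of receptor kinases, which phosphorylate SMAD2 and SMAD3 in the Nodal and activin branch or SMAD1, SMAD5 and SMAD9 in the BMP branch, and SMAD4 joins either group before it enters the nucleus. In the early embryo Nodal sustains the epiblast and patterns mesoderm and endoderm, its secreted inhibitors Lefty1 and Lefty2 are among its own targets, and BMP4 with its ID targets restrains neural differentiation of mouse embryonic stem cells (mESCs). The location of SRCAP, the ATPase of the remodelling complex that exchanges histone H2A for H2A.Z, was examined at 10 genes of these branches: the ligands Nodal and Bmp4, the inhibitors Lefty1 and Lefty2, the co-receptor Tdgf1 (also called Cripto), the transducers Smad2, Smad3 and Smad4, the inhibitory Smad7 and the BMP target Id1. These genes were listed by name, not by a peak value, out of 21938 protein-coding genes of GENCODE vM21 on GRCm38, and all 10 were found. Earlier results of these data were known when the list was made. A peak was counted to a gene when its midpoint lay in the promoter window, from 1000 bp upstream to 500 bp downstream of any transcription start site (TSS) of the gene, in the gene body, or within 50 kb of the gene.

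Both peak lists came from SYAT cells by CUT&RUN, an assay in which an antibody directs a nuclease to the bound DNA. SYAT is a CGR8 mESC line with YPet, a fluorescent protein, joined to an auxin-inducible degron (AID) and knocked in at the 3′ end of both Srcap alleles and with stable expression of the receptor OsTir1, so all cells carried tagged SRCAP. The line was routinely kept in Auxinole, which limits basal loss of the tagged protein and is given as 200 nM in the labels but in µM in the study's methods, and was changed to serum and LIF medium before experiments. There was 1 library made with a GFP antibody, which binds the YPet tag, and 1 with an antibody to SRCAP itself, each from 100000 cells. The labels do not give a treatment for either library, while the study describes its CUT&RUN map of tagged SRCAP as one of control cells. In the study's methods the GFP antibody appears under CUT&Tag and the SRCAP antibody under CUT&RUN, which leaves the label as the source for the assay of the GFP library. Peak lists hold no expression values, so the identity of the cells could not be checked from markers.

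The list made with the GFP antibody (GFP list) held 28718 peaks and that made with the SRCAP antibody (SRCAP list) 28167, here called GFP peaks and SRCAP peaks. With 1 library per antibody and no read counts, depth is unknown, no test between libraries was possible and no p-value is given. Each peak carries a deposited score, a whole number of at least 13 with a median of 47 in both lists, whose meaning was not stated. Scores are therefore also given as percentiles within their own list, and a peak is called shared when at least 1 bp of it was covered by the other list. Wilson intervals at 95% cover counting error only, since genes and peaks are not replicates.

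Peaks of both lists lay near the Nodal and BMP genes but mostly outside their promoter windows. All 10 genes had a GFP peak in the gene or within 50 kb of it (79.6% of all protein-coding genes), and 9 of 10 had a SRCAP antibody peak there (80.5% of all), the exception being Smad2. A shared peak lay in this range at 9 of 10 genes, against 69.7% of all protein-coding genes. The 95% intervals for the GFP list (72.2 to 100%) and the SRCAP list (59.6 to 98.2%) include the shares of all genes. The promoter windows held less: 1 of 10 genes had a GFP peak there (Nodal, 95% CI 1.79 to 40.4%), against 35.0% of all protein-coding genes, and 1 of 10 had a SRCAP antibody peak (Smad4, same interval), against 35.7%. No gene (0 of 10, 95% CI 0 to 27.8%) had a promoter peak in both lists, against 27.0% of all, and 8 of 10 had one in neither, against 56.4% of all. With 10 genes the intervals for each single list include the share of all genes, and the interval for both lists reaches it too.

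**Figure D1:**
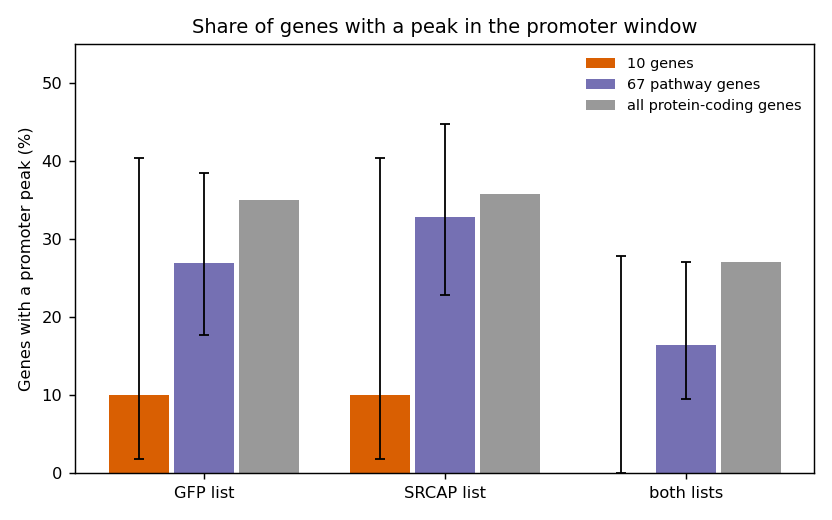
Bars give the percentage of genes with a peak midpoint in the promoter window, in the GFP list, the SRCAP list and in both, for the 10 Nodal and BMP genes, the 67 other pathway genes and all 21938 protein-coding genes, and lines are 95% Wilson intervals for the gene lists. The 10 genes sit at 10.0%, 10.0% and 0, under the bars of all genes at 35.0%, 35.7% and 27.0%, with intervals that reach up to 40.4%, 40.4% and 27.8%.

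Across the 10 genes, which together span windows of 1241 kb, there were 37 GFP and 36 SRCAP peaks, each counted once because the windows of the neighbours Lefty1 and Lefty2 overlap. The median per gene was 4.5 peaks in each list, against 3.0 over all protein-coding genes, and 3.81 and 3.50 peaks per 100 kb of window against 1.85 and 1.81. These medians count a peak for each gene whose window holds it. Over the joined windows, with each peak counted once, there were 2.98 and 2.90 peaks per 100 kb. A joined value was not computed over all genes, and the medians per gene of 1.85 and 1.81 are another measure. The density percentiles of single genes ran from 24.1 (Smad4) to 96.1 (Lefty2) in the GFP list. In the SRCAP list they ran from 9.75 (Smad2) to 95.1 (Lefty2). Of the 37 GFP peaks, 1 lay in the promoter window of a listed gene, 3 elsewhere in the body of one, 6 in the promoter window of another gene and 27 elsewhere in the flanks. The SRCAP list had 1, 1, 6 and 28 peaks in these places. Counting the promoter of any gene, 7 of the 37 GFP peaks (18.9%, 9.48 to 34.2) and 7 of the 36 SRCAP peaks (19.4%, 9.75 to 35.0) were at promoters, against 30.3% and 31.1% of all peaks. Gene bodies held peaks at 2 of 10 genes with the GFP antibody (Smad2 and Smad7, against 35.9% of all genes) and at 1 of 10 with the SRCAP antibody (Smad7, against 36.2%).

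**Figure D2:**
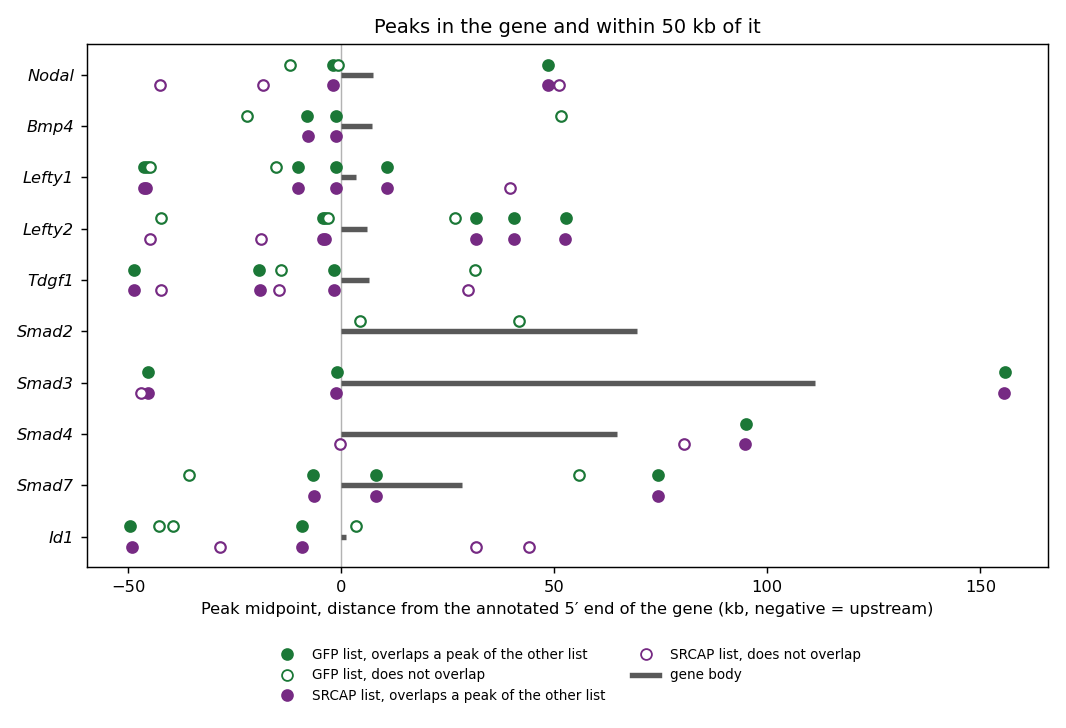
Each row is a gene, with its body as a grey bar from the 5′ end at 0, and points are peak midpoints by distance from that 5′ end in kb (negative is upstream), GFP list above and SRCAP list below, filled where the peak overlaps one of the other list. Most of the 37 GFP and 36 SRCAP peaks stand in the flanks, and Smad2 has no point in the SRCAP row.

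The peaks that did lie close were often just upstream of the promoter window. At Lefty1, Nodal, Tdgf1, Smad3 and Bmp4, 5 of 10 genes, a shared peak had its midpoint 1000 to 2500 bp upstream of a TSS, a position that 6.29% of all protein-coding genes held. This range was chosen after the positions of the peaks had been seen, so its count is a description of these genes and no evidence about them. The median distance from a TSS to the nearest peak was 1496 bp in both lists, against 6521 bp (GFP) and 6397 bp (SRCAP) over all protein-coding genes, and to the nearest shared peak 1776 and 1785 bp, against 18540 and 18539 bp. Ranked from near to far among all protein-coding genes, the nearest-peak distances lay at percentiles 34.5 (Smad7) to 71.8 (Smad4) in the GFP list. In the SRCAP list they lay at 30.4 (Smad4) to 84.3 (Smad2). For the nearest shared peak the percentiles were 25.4 (Smad7) to 74.5 (Smad2) in the GFP list and 25.7 to 74.5 in the SRCAP list. At the edge of the promoter window, the peaks inside were those of Nodal (841 bp upstream, GFP list) and Smad4 (312 bp upstream, SRCAP list), and the nearest outside were at Smad3 (1105 bp upstream, GFP list, and 1151 bp, SRCAP list), Bmp4 (1193 bp, GFP list), Lefty1 (1277 bp, SRCAP list, and 1284 bp, GFP list) and, downstream of a TSS, Smad7 (692 bp, GFP list). At the outer limit of 50 kb, the farthest peaks inside were 49484 bp (GFP) and 49220 bp (SRCAP) from Id1, and the nearest outside were 50234 and 50394 bp from Nodal.

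**Figure D3:**
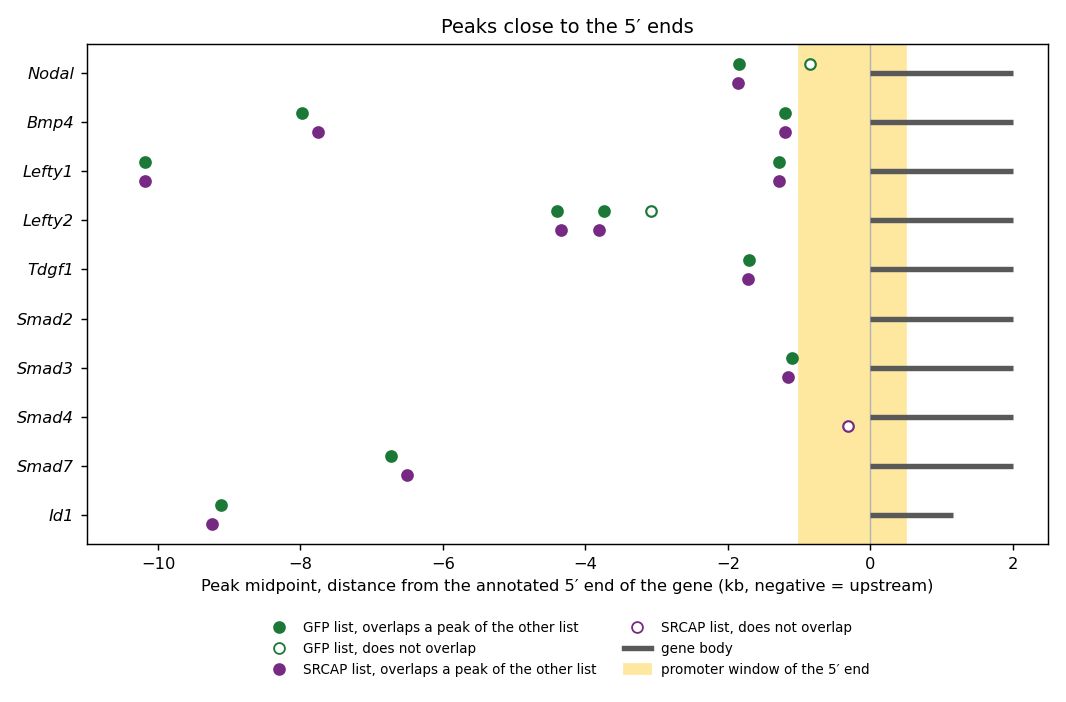
Peak midpoints from about 10 kb upstream to 2 kb downstream of the annotated 5′ end (x axis, kb), with GFP list points above and SRCAP list points below each gene and the promoter window of that 5′ end shaded. The shaded band holds 1 GFP point (Nodal) and 1 SRCAP point (Smad4), and filled pairs stand to the left of it at Nodal, Bmp4, Lefty1, Tdgf1 and Smad3.

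Sequence is printed below for the stretch common to both peaks of a pair, at most 300 bases around its middle, on the plus strand of GRCm38 and read 5′ to 3′. Capitals mark exact matches on either strand to sequences bound by factors of the pathway or by pluripotency factors: the SMAD box CAGAC, the SMAD palindrome GTCTAGAC, the FOXH1 sites AATCCACA and AATACACA, and the octamer ATGCAAAT bound by POU factors. The SMAD GC box GGCGCC was also searched and had no match in the printed stretches. A match to letters this short is a description and not a bound site. The genes on whose peaks most of this account turns are shown, for each the pair with the highest score percentile, and for Lefty1, Smad3 and Bmp4 also the pair nearest to the TSS, which was chosen after its values had been seen.

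Nodal, the ligand of its branch (chromosome 10, 61417972 to 61425338, plus strand), had 4 GFP and 5 SRCAP peaks. The strongest in either list was a shared pair just upstream of the promoter window, 1843 bp upstream of the TSS in the GFP list (61415793 to 61416464, score 67, percentile 71.3) and 1854 bp in the SRCAP list (61415827 to 61416408, score 68, percentile 71.6). At 672 and 582 bp these were wide peaks, and their ranks were nearly equal. The promoter peak of Nodal was a separate GFP peak 841 bp upstream (61416855 to 61417407, score 34, percentile 28.4) with no SRCAP antibody counterpart. A shared pair downstream, 48456 and 48449 bp from the TSS, scored 36 and 58. The remaining GFP peak was 12005 bp upstream (score 38). Of the SRCAP peaks, 3 lacked a GFP counterpart, 42494 bp upstream in an intron of Pald1 (score 47), 18368 bp upstream (score 23) and 51191 bp downstream (score 23). The common stretch of the upstream pair (chr10:61415968-61416267, 53.0% GC) held none of the searched sequences.
Nodal upstream pair: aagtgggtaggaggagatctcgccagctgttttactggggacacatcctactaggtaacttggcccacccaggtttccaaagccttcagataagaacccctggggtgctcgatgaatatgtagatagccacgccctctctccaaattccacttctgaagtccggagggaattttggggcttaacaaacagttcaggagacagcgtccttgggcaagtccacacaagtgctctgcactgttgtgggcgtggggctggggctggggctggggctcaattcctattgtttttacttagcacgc

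Bmp4, the BMP ligand (chromosome 14, 46383520 to 46390669, minus strand), had 4 GFP and 2 SRCAP peaks, and its 2 shared pairs were among the weaker ones. The pair nearest to the TSS was 1193 bp upstream in the GFP list (46391751 to 46391972, score 22, percentile 6.56) and 1197 bp in the SRCAP list (46391745 to 46391986, score 31, percentile 26.0). The next was 7981 bp (46398561 to 46398738, score 31, percentile 22.2) and 7755 bp upstream (46398228 to 46398620, score 34, percentile 31.5). The stronger peaks of this gene were in the GFP list without a counterpart, 22184 bp upstream (score 61, percentile 66.9) and 48103 bp downstream (score 53, percentile 57.7). Both common stretches, chr14:46391751-46391972 nearest to the TSS and chr14:46398561-46398620 farther upstream, held none of the searched sequences.
Bmp4 pair nearest to the TSS: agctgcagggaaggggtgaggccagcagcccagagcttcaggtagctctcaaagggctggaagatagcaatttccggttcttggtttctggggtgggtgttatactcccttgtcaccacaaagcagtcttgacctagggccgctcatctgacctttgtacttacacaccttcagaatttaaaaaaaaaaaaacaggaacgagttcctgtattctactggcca
Bmp4 pair farther upstream: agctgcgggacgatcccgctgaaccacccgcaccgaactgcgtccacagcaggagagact

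Lefty1 and Lefty2, secreted inhibitors of Nodal, lie next to each other on the plus strand of chromosome 1 (Lefty2 at 180893108 to 180899103, Lefty1 at 180935022 to 180938400) and stood in a peak-rich stretch. Lefty1 had 7 GFP and 6 SRCAP peaks and Lefty2, with the most peaks of the 10 genes in each list, had 8 and 7, at percentiles of 86.1 to 93.0 of the peak number over all protein-coding genes. Most of these peaks belong to both windows. The strongest pair was upstream of Lefty2, 4402 bp from its TSS in the GFP list (180888530 to 180888881, score 103, percentile 87.9) and 4349 bp in the SRCAP list (180888612 to 180888906, score 96, percentile 84.4). A second pair followed at 3741 bp (180889125 to 180889609, score 49, percentile 53.8) and 3808 bp (180889203 to 180889397, score 29, percentile 21.6), and a GFP peak without counterpart at 3081 bp (score 36). These 3 GFP peaks stood in a row upstream of Lefty2, and none had its midpoint in its promoter window.

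Between the genes lay 2 further shared pairs. One was 10186 bp (GFP list, 180924573 to 180925099, score 51, percentile 55.7) and 10185 bp (SRCAP list, 180924643 to 180925031, score 53, percentile 57.8) upstream of Lefty1. The other was just outside the Lefty1 promoter window, at 1284 bp (GFP list, 180933571 to 180933904, score 40, percentile 39.8) and 1277 bp (SRCAP list, 180933640 to 180933850, score 26, percentile 16.0) upstream. It is named although it is not among the 3 highest scores of the gene, a choice made after its values were seen. Another shared pair lay downstream of Lefty1 in the promoter window of Tmem63a (scores 27 and 42). Promoters of other neighbours held a GFP peak at Sde2 (score 17) and a SRCAP peak at Gm18036 (score 59), each without counterpart. The other peaks without counterpart scored 32 (GFP list, between the genes) and 60 and 14 (SRCAP list, at the outer ends of the windows).

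The strongest pair (common stretch chr1:180888612-180888881, 60.0% GC) held 3 SMAD boxes, and the pair nearest to Lefty1 (chr1:180933640-180933850) held 2. The other stretches from this locus are shown because of their matches and were chosen after these were seen. The second Lefty2 pair (chr1:180889203-180889397) held a SMAD palindrome, with 2 SMAD boxes besides, and the pair between the genes (chr1:180924687-180924986) held 2 FOXH1 sites and 1 SMAD box. FOXH1 is the DNA-binding partner of SMAD2 and SMAD3 in Nodal signalling.
Lefty2 strongest pair: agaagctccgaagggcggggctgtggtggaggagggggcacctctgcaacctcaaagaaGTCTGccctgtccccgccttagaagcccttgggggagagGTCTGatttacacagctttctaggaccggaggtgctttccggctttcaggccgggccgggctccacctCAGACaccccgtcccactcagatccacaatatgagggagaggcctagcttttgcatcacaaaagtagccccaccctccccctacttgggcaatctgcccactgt
Lefty2 second pair: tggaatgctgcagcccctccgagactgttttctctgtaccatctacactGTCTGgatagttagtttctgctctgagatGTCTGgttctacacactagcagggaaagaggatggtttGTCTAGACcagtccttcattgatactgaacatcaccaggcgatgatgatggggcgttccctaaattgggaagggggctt
Pair between Lefty2 and Lefty1: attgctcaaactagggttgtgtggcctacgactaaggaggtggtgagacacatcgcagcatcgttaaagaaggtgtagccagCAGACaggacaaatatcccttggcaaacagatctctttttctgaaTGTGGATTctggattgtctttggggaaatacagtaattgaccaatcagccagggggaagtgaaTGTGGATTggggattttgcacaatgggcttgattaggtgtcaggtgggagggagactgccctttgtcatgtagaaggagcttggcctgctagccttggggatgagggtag
Lefty1 pair nearest to the TSS: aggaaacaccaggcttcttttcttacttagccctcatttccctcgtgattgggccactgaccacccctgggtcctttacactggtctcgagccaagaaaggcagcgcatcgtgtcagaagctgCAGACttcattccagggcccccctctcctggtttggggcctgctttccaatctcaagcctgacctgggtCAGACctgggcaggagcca

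Tdgf1, the membrane-anchored co-receptor that Nodal needs (chromosome 9, 110939603 to 110946158, minus strand), had 5 GFP and 6 SRCAP peaks. A wide shared pair stood 1709 bp upstream of the nearest TSS in the GFP list (110947534 to 110948199, score 112, percentile 89.9) and 1716 bp in the SRCAP list (110947547 to 110948200, score 41, percentile 44.7). These intervals nearly coincided, yet their ranks differed by 45.2 percentile points, more than at any other shared pair near the 10 genes. Farther upstream, shared pairs stood at 19223 bp (score 54) and 19141 bp (score 78) in an intron of Lrrc2 and at 48724 bp (score 70) and 48696 bp (score 62) in an intron of Gm10030. The promoter of Lrrc2 had a peak in each list that did not overlap (scores 31 and 28). The remaining peaks were a GFP peak in an exon of Fam240a (score 28) and SRCAP peaks at the Fam240a promoter and in an intron of Rtp3 (score 18 each). The common stretch of the nearest pair (chr9:110947723-110948022, 47.3% GC) held 2 SMAD boxes and 1 octamer.
Tdgf1 upstream pair: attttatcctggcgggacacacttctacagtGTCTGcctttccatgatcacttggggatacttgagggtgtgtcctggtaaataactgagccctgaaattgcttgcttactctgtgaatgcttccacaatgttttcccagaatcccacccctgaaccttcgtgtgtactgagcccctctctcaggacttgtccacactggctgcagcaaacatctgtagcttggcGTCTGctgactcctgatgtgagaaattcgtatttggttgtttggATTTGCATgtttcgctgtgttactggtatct

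Smad3, a transducer of Nodal and activin signals (chromosome 9, 63646767 to 63757994, minus strand), had 3 GFP and 4 SRCAP peaks and none in its body of 111228 bp. The pair nearest to a TSS was just outside the promoter window, 1105 bp upstream in the GFP list (63758936 to 63759262, score 69, percentile 73.6) and 1151 bp in the SRCAP list (63758869 to 63759420, score 49, percentile 53.7). When any overlap with the window was counted in place of the midpoint, this pair entered it, and Smad3 became the gene with a promoter peak in both lists. A second pair 45352 bp upstream (63803231 to 63803461, score 60, percentile 65.6) and 45448 bp upstream (63803242 to 63803641, score 139, percentile 93.6) ranked higher in the SRCAP list. The third lay downstream of the gene in the promoter windows of Aagab and Iqch (scores 62 and 47). A SRCAP peak 47059 bp upstream (score 22) had no counterpart. The stretch nearest to the TSS (chr9:63758949-63759248, 51.7% GC) held 1 SMAD box, and the distal one (chr9:63803242-63803461, 56.4% GC) none of the searched sequences.
Smad3 pair nearest to the TSS: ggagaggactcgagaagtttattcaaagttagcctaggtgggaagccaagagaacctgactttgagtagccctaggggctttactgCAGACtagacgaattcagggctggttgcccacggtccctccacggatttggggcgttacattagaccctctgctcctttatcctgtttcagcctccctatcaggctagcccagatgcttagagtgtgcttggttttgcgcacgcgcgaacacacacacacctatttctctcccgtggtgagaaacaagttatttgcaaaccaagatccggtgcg
Smad3 distal upstream pair: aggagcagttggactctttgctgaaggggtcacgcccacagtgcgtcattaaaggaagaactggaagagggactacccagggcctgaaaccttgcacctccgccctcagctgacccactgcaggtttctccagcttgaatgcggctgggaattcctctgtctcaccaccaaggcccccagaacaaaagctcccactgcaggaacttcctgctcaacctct

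Id1, a helix-loop-helix inhibitor and direct BMP target (chromosome 2, 152736251 to 152737410, plus strand), had 5 peaks in each list, none of them at its promoter or in its body. Shared pairs stood 9110 bp (GFP list, 152726976 to 152727306, score 26, percentile 12.3) and 9248 bp upstream (SRCAP list, 152726900 to 152727106, score 21, percentile 7.25), and 49484 bp (152686567 to 152686967, score 26, percentile 12.3) and 49220 bp upstream (152686802 to 152687260, score 39, percentile 37.6). The latter pair lay in the promoter window of Mcts2, a gene in an intron of H13. GFP peaks without counterpart were 42817 bp upstream (score 32), 39585 bp upstream at the promoter of Gm26841 (score 36) and 3541 bp downstream of the TSS (score 35), the nearest to Id1 in either list. SRCAP peaks without counterpart were 28414 bp upstream (score 38), 31661 bp downstream (score 47) and 44038 bp downstream (score 18). No Id1 peak in either list exceeded a percentile of 50.5. The Mcts2 pair (chr2:152686802-152686967, 63.9% GC, 17 CpG) ranked higher than the nearer one in the SRCAP list and held 1 SMAD box.
Id1 distal pair at the Mcts2 promoter: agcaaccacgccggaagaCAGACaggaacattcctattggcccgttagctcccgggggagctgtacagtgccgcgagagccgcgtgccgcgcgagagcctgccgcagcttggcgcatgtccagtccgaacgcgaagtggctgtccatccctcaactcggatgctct

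**Figure D4:**
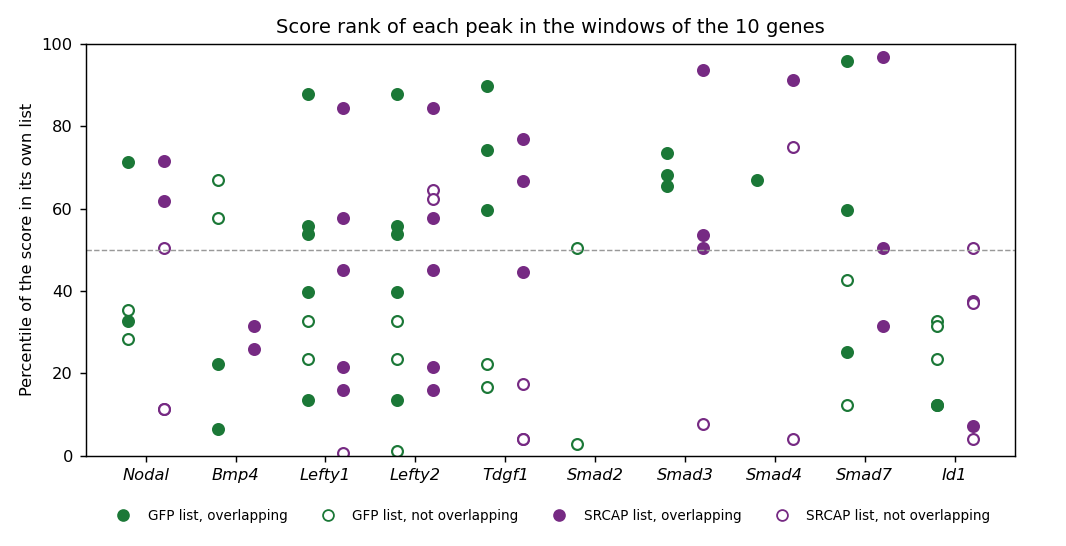
Percentile of each peak's score within its own list (y axis, 0 to 100) for the 10 genes, GFP list to the left and SRCAP list to the right of each gene, filled where the peak overlaps one of the other list, with a dashed line at 50. Smad7 has the highest points of both lists (95.9 and 96.9), and no Id1 point stands above 50.5.

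Smad7, the inhibitory SMAD that shuts down the receptors (chromosome 18, 75367529 to 75395935, plus strand), had the highest-ranking pair near the 10 genes. It lay 6724 bp upstream of the nearest TSS in the GFP list (75360406 to 75361203, score 163, percentile 95.9) and 6511 bp upstream in the SRCAP list (75360832 to 75361203, score 185, percentile 96.9), and both peaks ended at the same base. Smad7 was also the gene with a shared peak in its body, in an intron 692 bp (75375368 to 75375843, score 54, percentile 59.6) and 739 bp (75375478 to 75375827, score 47, percentile 50.5) downstream of the nearest TSS. Another pair lay 66945 and 67024 bp downstream in an intron of Ctif (scores 33 and 34). GFP peaks without counterpart were 35707 bp upstream (score 26) and 48359 bp downstream (score 41).

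Smad2 and Smad4, like Smad7 on chromosome 18, had the fewest peaks over both lists. Smad2, the transducer that acts beside SMAD3 (76241580 to 76310963, plus strand), had 2 intronic GFP peaks, 3717 bp (76245720 to 76246062, score 19, percentile 2.82) and 20823 bp (76283133 to 76283496, score 47, percentile 50.5) from the nearest TSS, and the nearest SRCAP antibody peak lay 80462 bp from the gene. Smad4, the partner common to both branches (73639009 to 73703780, minus strand), had 1 GFP and 3 SRCAP peaks. Its promoter peak was found with the SRCAP antibody only, 312 bp upstream (73703904 to 73704280, score 74, percentile 74.9). The shared pair of Smad4 lay downstream of the gene, 33670 bp (73608767 to 73609018, score 61, percentile 66.9) and 33624 bp (73608803 to 73609075, score 122, percentile 91.2) from the nearest TSS, and a SRCAP peak at 19312 bp scored 18. Repeat-masked sequence made up 50.4% of the GFP and 54.6% of the SRCAP peak of this pair, and none of the other 2 Smad4 peaks. The 3 transducers differed in place, with peaks within the body at Smad2, outside it at Smad3 and at the promoter of Smad4 in 1 list.

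Agreement between the antibodies near these genes was close to that over the whole lists. Of the 37 GFP peaks, 21 were shared (56.8%, 40.9 to 71.3), against 56.2% of all GFP peaks, and of the 36 SRCAP peaks, 21 were shared (58.3%, 42.2 to 72.9), against 57.7%. The ranks of the 21 pairs differed between lists by a median of 17.7 percentile points, against 16.2 over 15843 pairs that overlapped 1 to 1. Ranks lay within 3.53 points at the upstream Nodal pair, the strongest Lefty2 pair, the pair between Lefty2 and Lefty1 and the upstream Smad7 pair, and differed by 31.7 points or more at the second Lefty2 pair, the Tmem63a pair and the upstream Tdgf1 pair.

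**Figure D5:**
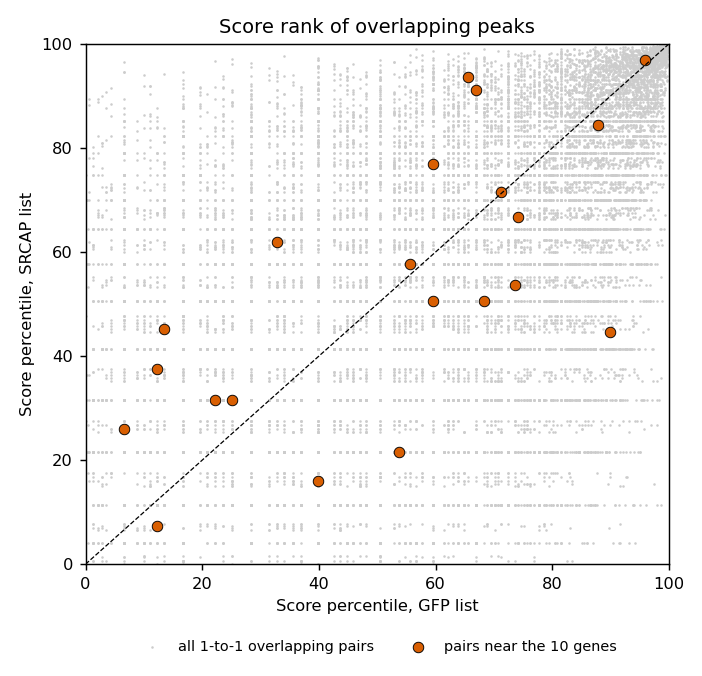
Score percentile in the GFP list (x axis) against that in the SRCAP list (y axis) for overlapping peaks, with all 15843 pairs in grey, the 21 pairs near the 10 genes in orange and equal ranks as a dashed line. The orange points lie on both sides of the line across the range of the grey ones, and the upstream Tdgf1 pair (89.9 and 44.7) stands farthest from it.

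The median scores near the 10 genes were below the median of 47 in each list. The GFP peaks ranged from 17 to 163 with a median of 38 (median percentile 35.5), and the SRCAP peaks from 14 to 185 with a median of 42 (median percentile 45.0). The median score of the list was reached by 16 of 37 GFP peaks (43.2%, 28.7 to 59.1) and 17 of 36 SRCAP peaks (47.2%, 32.0 to 63.0). Shared peaks ranked higher than the others, with median percentiles of 59.6 against 30.0 (GFP list) and 50.5 against 11.4 (SRCAP list). Over all peaks these medians were 66.9 against 31.5 and 64.5 against 31.5. Median widths were 331 and 277 bp, against 301 and 258 bp over all peaks.

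In base composition the peaks resembled the rest of their lists. In 500 bp windows the median GC content was 50.4% (GFP) and 52.0% (SRCAP), against 49.8% and 51.0% over all peaks, and the observed over expected CpG ratio was 0.308 and 0.282, against 0.303 and 0.310. In 200 bp windows at the midpoint, the SMAD box was found in 21 of 37 GFP peaks (56.8%) and 19 of 36 SRCAP peaks (52.8%), against 42.4% and 42.6% of all peaks. Shared pairs enter the counts of both lists, so the lists are not separate counts. The gap to all peaks was not tested. The SMAD palindrome was found in 1 peak of each list, the second Lefty2 pair, against 0.185% and 0.224% of all peaks. The letters of the palindrome hold no SMAD box, but these peaks held SMAD boxes besides and are in both counts. FOXH1 sites were in 2 GFP peaks (5.41%), between Lefty2 and Lefty1 and at the Gm26841 promoter near Id1, and in 1 SRCAP peak (2.78%), between Lefty2 and Lefty1, against 1.71% and 1.53%. The SMAD GC box was in no peak of the 10 genes, against 3.92% and 4.95% of all peaks. The octamer was in none of the 200 bp windows (2.21% and 2.20% of all peaks), and that of the Tdgf1 pair lies outside them.

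The wider pathway was read from a list of 67 other genes arranged by role, all found in the annotation. Of these, 18 carried a GFP promoter peak (26.9%, 17.7 to 38.5), 22 a SRCAP antibody one (32.8%, 22.8 to 44.7) and 11 in both (16.4%, 9.42 to 27.1), beside the 35.0%, 35.7% and 27.0% of all protein-coding genes. The intervals reach these values. In 38 of the 67 genes neither list had a promoter peak, beside 56.4% of all protein-coding genes.

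By role, promoter peaks in the GFP list, the SRCAP list and both were found at 4, 3 and 2 of 16 ligands, at 1, 1 and 1 of 2 proprotein convertases, and at 5, 2 and 2 of 13 receptors and co-receptors. The shares of all protein-coding genes given above apply to each role, and groups this small have wide intervals. Among ligands, Gdf9, an oocyte factor, scored 58 (GFP list) and 88 (SRCAP list), and Tgfb3 scored 42 and 40. The convertase Pcsk6, which cleaves Nodal and Lefty precursors, scored 59 and 23. Among receptors, the BMP receptor Bmpr1b had the highest GFP score of the list, 127 (SRCAP list 76), and the activin and Nodal receptor Acvr2b scored 48 and 40.

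Of 8 extracellular inhibitors, 1, 3 and 1 carried one, where Bambi, a decoy receptor, scored 35 and 67 at peaks that did not overlap each other. Transducers had one at 2, 2 and 1 of 4, with Smad1 of the BMP branch at 45 and 79, and SMAD partners and regulators at 5, 6 and 4 of 15, with the ubiquitin ligases Nedd4l (91 and 53) and Trim33 (46 and 89) named. The Nedd4l scores are of peaks at different TSSs of the gene. The 9 targets of the pathway lacked GFP promoter peaks (0 of 9, 0 to 29.9%), while 5 carried one in the SRCAP list (55.6%, 26.7 to 81.1). The share of all protein-coding genes was 35.0% for the GFP list, above the interval of the targets, and 35.7% for the SRCAP list, within it. For both lists the targets stood at 0 of 9 (0 to 29.9%), an interval that includes the 27.0% of all genes. Several roles were read in each list, with no allowance for their number. Among these 5 targets were Id2 (score 57, percentile 61.4), Msx1 (30, percentile 25.5), Mixl1 (28, percentile 17.5) and Id4 (18, percentile 4.14). Their promoter peaks did not overlap a GFP peak, and all but that of Id2 ranked low in the SRCAP list. These genes are outside the naming rule and were singled out after their values were seen. These counts have no replicate check, and the antibodies were not compared by a test.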

How the data were processed

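Per the labels, CUT&RUN was run on 100000 cells per library, fixed in 0.1% formaldehyde for 5 min and incubated with antibody at a 50-fold dilution, and fragments selected for a 250 bp insert were sequenced as 75 nt paired reads. The deposited data are 1 list of peaks for each library, made by the authors, with a score per peak as a whole number whose meaning was not stated. The submitters' processing notes name STAR, Picard and MACS2 and the builds mm10 and dm6, and the study's reporting summary gives a MACS2 call against an input under its ChIP-seq heading, without saying whether the CUT&RUN lists were called that way. No peak ended beyond a GRCm38 chromosome. Libraries were grouped by the antibody in their titles.

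Peaks were placed by their midpoint against TSSs of 141730 GENCODE vM21 transcripts in Python 3.11.15 with pandas 2.3.3 and numpy 2.4.6. Sequences were read with pysam 0.24.0 from the RefSeq GRCm38 assembly, and plots were drawn with matplotlib 3.10.9. Placement in promoter windows was checked on simulated peaks, and overlap counts were checked against bedtools on the real lists. Motif counts had no such check. The genes, the pathway list and the alternatives were chosen with earlier results of these data known. All 10 genes were named, with every peak where a list had 6 or fewer and otherwise the promoter peaks and the 3 highest scores. From the pathway list, up to 2 genes per role with a promoter peak in both lists and the highest lower percentile were named. Blacklisted regions were not removed, and no control antibody was analysed here. The values of 1 gene of the pathway list are not reported here.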

Additional observations from a re-analysis of the deposited data

How the results depend on the processing

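Of 61 values recomputed under alternatives, 41 stayed within the tolerance set for them (counts within 1.5 times, shares within their counting interval, median percentiles within 1 SD over the peaks) and 20 moved beyond it. These tolerances are wide: ranked by width in place of score, the median percentile of peaks near the 10 genes was 57.0 and 56.2 in place of 35.5 and 45.0, and the shared percentage ranged from 43.2 to 68.8% (GFP) and from 44.4 to 70.0% (SRCAP). No paired analysis was possible because there was a single library for either antibody. Values are given as GFP list, SRCAP list and both lists. The promoter counts of the 10 genes depended most on the window: 2500 bp either side of the TSS gave 6, 7 and 6 genes (41.6%, 41.9% and 32.5% of all protein-coding genes), since it takes in the peaks just upstream. Any overlap with the window gave 3, 2 and 1 genes (36.2%, 36.5% and 27.9% of all). The median score as threshold left 0, 1 (Smad4) and 0 genes (22.2%, 23.5% and 16.0% of all). That threshold removes peaks by construction. It left 9, 9 and 3 of the 67 pathway genes with a promoter peak, beside the same 22.2%, 23.5% and 16.0% of all. Near the 10 genes it left 16 and 17 peaks. The wider window gave 17 pathway genes in both lists, beside 32.5% of all protein-coding genes. Flanks of 25 kb held 24 and 20 peaks and flanks of 100 kb held 58 and 61. At the median score, the count of 5 genes with a shared peak 1000 to 2500 bp upstream fell to 2 (Smad3 and Nodal). The share of all protein-coding genes at that setting was 3.37%. The count was 5, 5, 5 and 4 under the other 4 alternatives, against 4.68%, 4.93%, 4.02% and 1.28% of all. The range and these alternatives were chosen after seeing the data. Without chromosome 8, where both lists are dense, 34.3% and 34.9% of all protein-coding genes had a promoter peak. Depth is unknown, and a peak missing from a list does not show that SRCAP was absent there.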
